A study of Sus scrofa with 18 samples.

Results

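A set of 10 genes that mark astrocytes was followed through 3 gestation days of the fetal pig brain. They were taken by name from the deposited table of gene counts, and 9 of the 10 were found among its 31908 genes (GFAP, AQP4, GJA1, GJB6, SLC1A3, SLC1A2, SPARCL1, ALDH1L1 and ALDOC). No gene of the table carries the name S100B, so that gene has no value here. All 9 passed the filter on low counts, which left 16325 genes for testing.

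Whole brains of domestic pig fetuses were collected at gestation days 45, 60 and 90 (GD45, GD60 and GD90), from Landrace x Large White gilts bred to boars of the line LR-M6. Each day had 3 female and 3 male fetuses, 18 libraries in all, and every group was untreated. By the litter sizes in the labels, the 6 fetuses of each day came from 3 litters, with 1 female and 1 male of each, so littermates are not independent animals. Counts are of whole brain tissue, and in such samples fewer cells of a type and less RNA per cell cannot be told apart.

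Astrocytes are the glial cells that clear glutamate and potassium from the space around synapses, cover blood vessels with their endfeet and pass ions and metabolites to each other through gap junctions. They arise from radial glia, the stem cells of the fetal brain, mostly after the neurons. Several of the genes followed here, among them SLC1A3 and GJA1, are also expressed by radial glia, so they are not markers of mature astrocytes alone.

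The gene counts of a library summed to between 15118843 and 19729783 (median 16413097). Levels are given as CPM, the counts of a gene scaled to the library total, with TMM factors for library size, and as CPM per kilobase of exonic length (CPM per kb) where genes are compared with each other. The list of 11 neuron genes summed to between 7037 and 12102 CPM in every library, and the labels give the tissue as brain. Differences were tested over all genes with edgeR's quasi-likelihood test and Benjamini-Hochberg adjustment, with 1 model of 6 groups of sex and day, and a gene was called at an adjusted p under 0.05.

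Sequences just before the RefSeq gene starts are shown for 3 genes: GFAP and AQP4, which rose in both periods, and SLC1A2, the gene with the largest fold between GD60 and GD90. Each run is the 250 bases before the start on Sscrofa11.1, 5′ to 3′ on the gene's strand. They lie at chr12:18456018-18456267 (plus strand), chr6:111422170-111422419 (minus strand) and chr2:25603642-25603891 (plus strand). Capitals mark letters that match one of 4 motifs searched on both strands: TTGGCA (NFI factors), TTCNNNGAA (STAT factors), ACAATG (SOX factors) and GTGGGAA (RBPJ, the factor of Notch signalling).
GFAP: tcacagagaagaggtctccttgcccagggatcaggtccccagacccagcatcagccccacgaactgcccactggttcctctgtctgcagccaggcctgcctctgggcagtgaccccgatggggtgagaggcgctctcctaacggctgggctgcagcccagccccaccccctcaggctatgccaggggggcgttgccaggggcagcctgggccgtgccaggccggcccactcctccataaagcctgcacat
AQP4: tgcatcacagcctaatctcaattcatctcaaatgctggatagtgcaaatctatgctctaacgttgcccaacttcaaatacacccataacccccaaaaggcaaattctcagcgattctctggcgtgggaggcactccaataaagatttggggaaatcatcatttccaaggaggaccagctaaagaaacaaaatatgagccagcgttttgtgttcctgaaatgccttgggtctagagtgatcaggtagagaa
SLC1A2: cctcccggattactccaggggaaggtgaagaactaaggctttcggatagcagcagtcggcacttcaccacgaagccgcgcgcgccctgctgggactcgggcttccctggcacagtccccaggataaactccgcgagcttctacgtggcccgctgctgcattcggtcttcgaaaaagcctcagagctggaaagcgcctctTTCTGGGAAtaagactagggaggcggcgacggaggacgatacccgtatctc

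Of the 9 genes, only SLC1A2 held a match in its window, to the STAT letters, starting 51 bases before the start. These letters were in 6.12% of the windows of 19556 protein-coding genes, against 9.86% for the NFI letters, 7.29% for the SOX letters and 5.28% for the RBPJ letters. A match is only a description of the letters, and their absence from the other windows says nothing of the factors.

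GFAP encodes the intermediate filament protein of astrocytes. Its level at GD45 was 41.3, 44.4 and 18.8 CPM in the females and 52.1, 23.4 and 17.5 CPM in the males. At GD60 it was 136, 116 and 125 CPM in the females and 138, 137 and 115 CPM in the males. At GD90 it reached 898, 710 and 693 CPM in the females and 913, 620 and 599 CPM in the males. The 3 days did not overlap in any library. GFAP rose 3.88-fold from GD45 to GD60 (log2 fold change 1.95, SE 0.24, adjusted p = 3.68e-05, edgeR) and 5.78-fold from GD60 to GD90 (log2 fold change 2.53, SE 0.24, adjusted p = 4.65e-07). From GD45 to GD90 the fold was 22.4.

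AQP4 encodes the water channel of the endfeet. At GD45 the females had 43.9, 38.3 and 21.4 CPM and the males 48.2, 29.2 and 8.16 CPM. At GD60 the females had 128, 113 and 142 CPM and the males 107, 74.3 and 70.4 CPM. At GD90 the females had 535, 477 and 494 CPM and the males 572, 577 and 540 CPM. As for GFAP, all 6 libraries of each day lay above all 6 of the day before. AQP4 rose 3.29-fold in the earlier period (log2 fold change 1.72, SE 0.28, adjusted p = 0.00042, edgeR) and 5.13-fold in the later one (log2 fold change 2.36, SE 0.28, adjusted p = 4.9e-06).

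**Figure D1:**
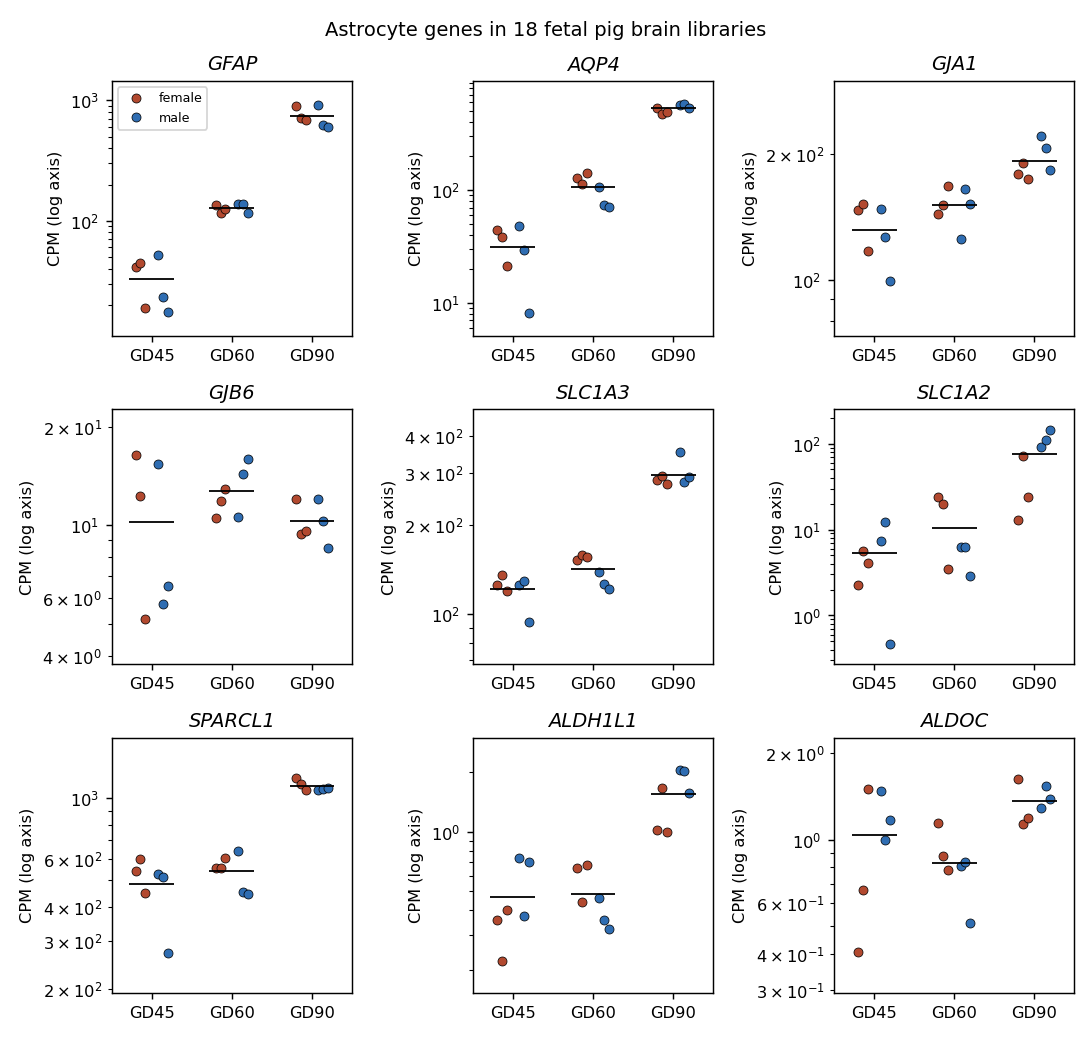
Level of each of the 9 genes in the 18 libraries, as TMM-scaled CPM on a log axis, against gestation day; points are libraries (red female, blue male) and bars are means of the 6 libraries of a day. GFAP and AQP4 step up at both days, SLC1A3 and SPARCL1 mainly at GD90, and GJB6 stays between 5.18 and 16.4 CPM.

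GJA1 and GJB6 encode the gap junction proteins connexin 43 and connexin 30 of astrocytes. GJA1 was between 99.4 and 152 CPM at GD45 (median 137), between 125 and 168 CPM at GD60 (median 151) and between 174 and 221 CPM at GD90 (median 186). The GD45 and GD60 ranges overlapped, while all GD90 libraries were above them. GJA1 rose 1.27-fold from GD60 to GD90 (log2 fold change 0.35, SE 0.10, adjusted p = 0.0129, edgeR), and its value of 0.20 (SE 0.10) from GD45 to GD60 was not called (adjusted p = 0.221).

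GJB6 did not follow GJA1. It was between 5.18 and 16.4 CPM at GD45 (median 9.43), between 10.5 and 15.9 CPM at GD60 (median 12.4) and between 8.52 and 12 CPM at GD90 (median 9.93), and the 3 ranges overlapped. Its log2 difference was 0.31 (95% interval −0.24 to 0.85) from GD45 to GD60 and −0.30 (−0.84 to 0.25) from GD60 to GD90, and neither was called (adjusted p = 0.462 and 0.375, edgeR). From GD45 to GD90 the log2 difference was 0.01, with an interval of −0.54 to 0.55.

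SLC1A3 and SLC1A2 encode the glutamate transporters GLAST and GLT-1. SLC1A3 was between 94 and 136 CPM at GD45 (median 126), between 122 and 159 CPM at GD60 (median 146) and between 275 and 354 CPM at GD90 (median 287). It lay well above both earlier days in every GD90 library. It rose 2.08-fold from GD60 to GD90 (log2 fold change 1.06, SE 0.09, adjusted p = 1.1e-07, edgeR), and its value of 0.22 (SE 0.09) from GD45 to GD60 was not called (adjusted p = 0.104).

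SLC1A2 had the widest spread between libraries of a day. At GD45 it was at 2.29, 5.66 and 4.08 CPM in the females and 7.27, 12.3 and 0.466 CPM in the males. At GD60 it was at 24, 19.6 and 3.45 CPM in the females and 6.23, 6.21 and 2.88 CPM in the males. At GD90 it was at 13, 72.6 and 24.1 CPM in the females and 90.6, 109 and 144 CPM in the males. The lowest GD90 library lay below the 2 highest of GD60, so these days overlapped, while all of GD90 was above GD45. SLC1A2 rose 7.22-fold from GD60 to GD90 (log2 fold change 2.85, SE 0.55, adjusted p = 0.000515, edgeR), the largest fold of the 9 and the least precise.

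The spread of SLC1A2 went with a property of the libraries. The gene model is long (15470 exonic bases), and libraries differed in how the level of all genes depended on gene length, by a slope of −0.188 to 0.118 log2 CPM per doubling of length. At GD90 the order of the 6 libraries by this slope was also their order by SLC1A2, from −0.067 with 13 CPM to 0.118 with 144 CPM. At GD45 the extremes matched as well, with a slope of −0.188 beside 0.466 CPM and 0.05 beside 12.3 CPM. At GD60 the highest slope (0.068) went with the highest level (24 CPM), but the lowest slope (−0.072) was that of a library with 6.21 CPM, above the 2.88 CPM beside −0.052. With each library's length trend removed, an alternative added after seeing the data, the log2 fold change from GD60 to GD90 was 2.80. That fit removes only the trend over all genes, so it cannot show how SLC1A2 itself follows the slope. Within days, the Pearson r of SLC1A2 (log2 CPM) with the slope was 0.93 over the 18 libraries. Without male GD45 replicate 17 it was 0.89. Whether the slope sets the SLC1A2 values was not tested.

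**Figure D2:**
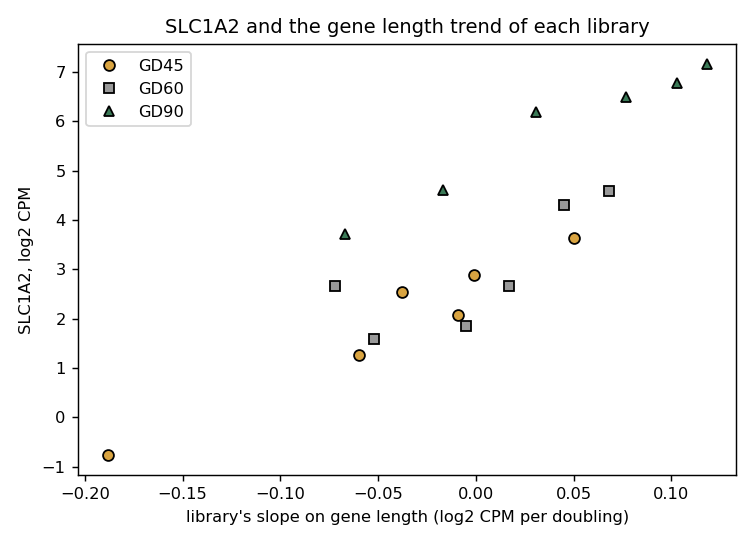
SLC1A2 level (log2 CPM) against each library's slope of log2 CPM on gene length (log2 CPM per doubling), 18 libraries, symbols by gestation day. Within GD90 both measures rank the 6 libraries alike, from −0.067 and 3.71 to 0.118 and 7.17.

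SPARCL1 encodes a secreted matrix protein that astrocytes release and that promotes synapses, and it was the most abundant of the 9. It was between 271 and 601 CPM at GD45 (median 522), between 447 and 640 CPM at GD60 (median 555) and between 1068 and 1187 CPM at GD90 (median 1083). The first 2 days overlapped and GD90 stood clear of both. The rise from GD60 to GD90 was 2.04-fold (log2 fold change 1.03, SE 0.14, adjusted p = 2.44e-05, edgeR), and the value of 0.17 (SE 0.14) from GD45 to GD60 was not called (adjusted p = 0.465).

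ALDH1L1, an enzyme of folate metabolism, and ALDOC, the brain aldolase of glycolysis, were near the lower limit of detection, with 246 and 319 counts in all 18 libraries together. ALDH1L1 was between 0.222 and 0.738 CPM at GD45, between 0.32 and 0.679 CPM at GD60 and between 0.992 and 2.05 CPM at GD90, where all libraries lay above the earlier days. It rose 3.15-fold from GD60 to GD90 (log2 fold change 1.66, SE 0.26, adjusted p = 8.43e-05, edgeR). ALDOC was between 0.408 and 1.5 CPM, 0.512 and 1.14 CPM, and 1.13 and 1.62 CPM at the 3 days. Its log2 fold change from GD60 to GD90 was 0.72 (SE 0.28, adjusted p = 0.0496, edgeR), a call lost in 14 of the 18 fits that each left out 1 library.

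For both genes the deposited gene models overlap those of neighbours. The ALDOC model spans chr12:44808341-44848519 with 12236 exonic bases, where RefSeq places ALDOC at chr12:44823376-44827273, and 82.9% of its exonic bases also belong to PIGS or SPAG5 on the same strand. PIGS had 59 counts and SPAG5 2 counts over all libraries. Of the 47 ALDOC exons, 44 were at 0, and 95.5% of the ALDOC exon counts fell on 1 exon. ALDH1L1 shares 40% of its exonic bases with SLC41A3 on the same strand, and 24 of its 30 exons were at 0. SLC41A3 had 14162 counts. Exons at 0 also occurred in members whose models share no bases. They were 12 of 24 for SPARCL1, 2 of 4 for GJA1, 6 of 16 for AQP4, 5 of 20 for SLC1A3 and 0 of 3 for GJB6. In these members the largest exon held between 21.6% (SPARCL1) and 99.5% (GJA1) of the exon counts. Of the 527 named genes that share 50% or more of their exonic bases with a gene on the same strand, as ALDOC does, 62.4% were under 1 CPM, against 26.8% of the 15789 that share none. Of the 1185 that share less than 50%, the class of ALDH1L1, 11.5% were under 1 CPM. These shares describe classes of genes and do not tell why a single gene of a class is low. Whether reads on shared bases were dropped in the counting was not tested. GFAP shares 23.6% of its bases with FAM187A and SLC1A2 4.21% with CD44, both on the other strand, and without stated strand settings such reads cannot be told apart.

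Per kilobase, the order of the genes changed between the days. At GD45 SPARCL1 was highest with 160 ± 38.1 CPM per kb (SD, n = 6), followed by GJA1 with 38.1 ± 6.04 and SLC1A3 with 10.3 ± 1.24. GJB6, GFAP and AQP4 came next with means of 6.02, 5.13 and 4.58 CPM per kb, and their ranges overlapped each other, with the upper ends of GJB6 and GFAP reaching into the range of SLC1A3. At GD90 SPARCL1 (364 ± 15.1) was followed by GFAP (115 ± 21.2), AQP4 (77.5 ± 5.87), GJA1 (55.5 ± 5.25) and SLC1A3 (24.9 ± 2.47), and the ranges of neighbours in this order did not overlap. GJB6 (6.04 ± 0.841) and SLC1A2 (4.88 ± 3.24) came after them and overlapped, above ALDH1L1 (0.293 ± 0.0883) and ALDOC (0.111 ± 0.0158). The lengths are those of the deposited models, and 82.9% of the ALDOC and 40% of the ALDH1L1 bases are shared with neighbours. The order of these 2 genes therefore depends on the models and is not settled here.

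Counted over the 9 genes, 2 rose from GD45 to GD60 (GFAP and AQP4) and none fell, where 16.7% of all genes tested were called, 9.35% higher and 7.37% lower. From GD60 to GD90, 8 of 9 rose and none fell, where 42.4% of all genes were called, 21.4% higher and 20.9% lower. The median log2 fold change of the 9 was 0.22 in the earlier and 1.06 in the later period, against −0.01 for all genes in both. All 6 libraries of the later day lay above the earlier day for 2 of 9 genes at GD60 (4.62% of all genes) and for 6 of 9 at GD90 (12.9%). From GD45 to GD90, 7 of 9 rose, where 57.5% of all genes were called and 28.3% rose, and the same 7 had all 6 GD90 libraries above GD45 (17.5% of all genes). Both periods share the GD60 libraries, so their fold changes are not independent.

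A gene was named early where its log2 fold change was larger from GD45 to GD60 than from GD60 to GD90, and late otherwise. By this description GJB6 was early, with values of 0.31 and −0.30 of which neither was called, and the other 8 were late. The difference of the periods was called for 3 of the 9 genes, all with the larger change later, where 10.7% of all genes were called and 5.13% in this direction. For SLC1A3 the later change exceeded the earlier one by 0.84 (SE 0.16, adjusted p = 0.0029, edgeR), for SPARCL1 by 0.86 (SE 0.25, adjusted p = 0.0368) and for ALDH1L1 by 1.56 (SE 0.49, adjusted p = 0.0496). With the litter as a replicate block (limma) SPARCL1 (adjusted p = 0.0513) and ALDH1L1 (adjusted p = 0.0886) were no longer called, nor were they with littermates summed (0.0858 and 0.159, edgeR). The ALDH1L1 call was lost in 16 and the SPARCL1 call in 15 of the 18 fits without 1 library, while SLC1A3 stayed called in all of them. For GFAP the difference was 0.58 (95% interval −0.28 to 1.43) and for AQP4 0.64 (−0.36 to 1.64), and neither was called (adjusted p = 0.411 and 0.436).

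**Figure D3:**
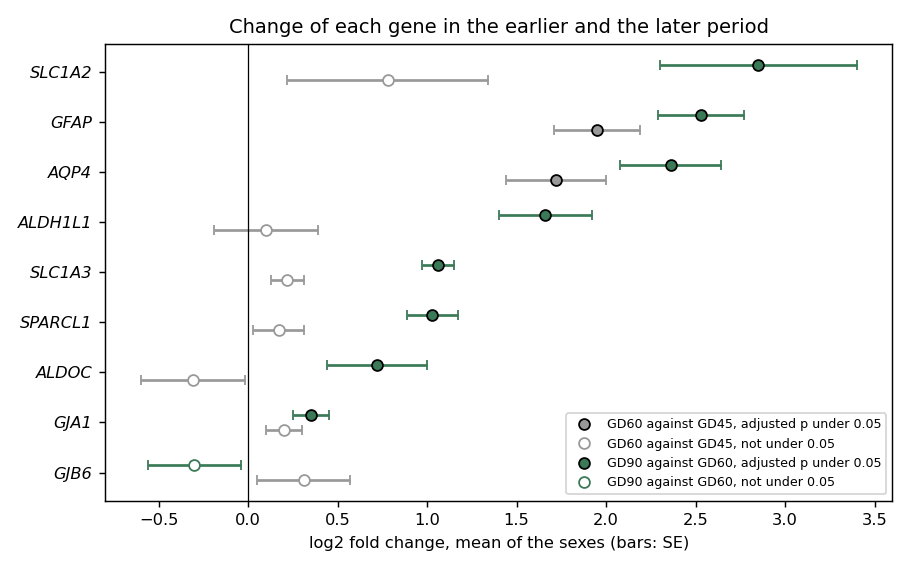
Log2 fold change of each gene (mean of the sexes, bars are SE) from GD45 to GD60 (grey) and from GD60 to GD90 (green), filled where the adjusted p was under 0.05. GFAP and AQP4 are filled in both periods, and 8 of the 9 genes in the later one.

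The lowest levels at GD45 were often those of 1 litter. The 2 fetuses of the GD45 litter of 8 had brain weights of 0.6653 and 0.7135 as labelled, where the other 4 ranged from 1.55 to 1.86. GFAP (18.8 and 17.5 CPM), AQP4 (21.4 and 8.16), SLC1A3 (120 and 94), GJA1 (117 and 99.4) and SPARCL1 (450 and 271) were lower in both of these brains than in the other 4, that is 5 of 9 genes against 11.4% of all genes. Without this litter, GFAP still rose by a log2 fold change of 1.66 (adjusted p = 2.44e-05, edgeR) and AQP4 by 1.37 (adjusted p = 1.31e-05) from GD45 to GD60. The later change then exceeded the earlier one for GFAP by 0.86 (adjusted p = 0.0435) and for AQP4 by 0.97 (adjusted p = 0.00593), and ALDH1L1 was no longer called (adjusted p = 0.0754). The male of this litter, replicate 17, also had the lowest length slope of all libraries (−0.188, against −0.009 in its female littermate). It had the highest radial glia, endothelial and erythroid sums of GD45 (3744, 665 and 789 CPM). Its neuron, proliferation, choroid plexus, microglia and ependymal sums were also the highest of GD45 (9833, 825, 1838, 163 and 65.9 CPM). Its oligodendrocyte, oligodendrocyte precursor and meningeal sums were the lowest of GD45 (122, 284 and 895 CPM). Within days the slope had a Pearson r of 0.6, 0.67 and 0.55 with AQP4, SLC1A3 and SPARCL1. For GFAP and GJA1 it was 0.08 and 0.33. Without replicate 17 these r were 0.26, 0.47, 0.13, −0.33 and −0.05. Whether brain weight, litter size or the slope bears on these levels was not tested.

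The 9 genes were compared between the sexes at each day. None was called at GD45, GD60 or GD90, where 0.0919%, 0.098% and 0.098% of all genes were called by edgeR. In the edgeR fit over all genes, an unadjusted p under 0.05 was found for 1 gene of the 9 at each day, ALDH1L1 at GD45 (log2 difference of males to females 0.87), SLC1A3 at GD60 (−0.27) and SLC1A2 at GD90 (1.65), where 2.59%, 4.8% and 13.6% of all genes were under it. SLC1A2 at GD90 was at 90.6 to 144 CPM in the males and 13 to 72.6 CPM in the females, without overlap, but its log2 difference (SE 0.72) had an adjusted p of 0.354. The same 2 sets of libraries had length slopes of 0.077 to 0.118 and −0.067 to 0.031, also without overlap. The sexes did not overlap for AQP4 and SLC1A3 on some days either. AQP4 was lower in males at GD60 (70.4 to 107 against 113 to 142 CPM) and higher at GD90 (540 to 577 against 477 to 535 CPM). SLC1A3 was lower in males at GD60 (122 to 139 against 153 to 159 CPM). The share of all genes without overlap of the sexes was not counted.

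From GD60 to GD90, 5 of 9 genes rose in females, where 27.1% of all genes were called and 13.7% rose, and 7 of 9 in males, where 34.5% were called and 18.5% rose. The ALDH1L1 call in females (adjusted p = 0.045, edgeR) was lost without TMM (0.0629), with no filter (0.126), with DESeq2 (0.0671) and in 15 of the 18 fits without 1 library. SLC1A2 rose 22.3-fold in males (adjusted p = 0.000731, edgeR), and its 2.34-fold value in females was not called (adjusted p = 0.233). The test of the difference between the sexes called none of the 9 genes in either period and 0% of all genes, while 2.04% (GD45 to GD60) and 19.8% (GD60 to GD90) of all genes had an unadjusted p under 0.05, with 2 and 3 of the 9 genes among them (edgeR). For SLC1A2 this difference was 3.25 (SE 1.06, unadjusted p = 0.00719, adjusted p = 0.198). It passed the threshold in a fit with only the GD60 and GD90 libraries (adjusted p = 0.0472), without the lightest litter (0.0302) and without male GD45 replicate 17 (0.0263), and in none of the other fits, which include those without TMM, with no filter, with DESeq2, with the litter as a block and with the length trend removed. AQP4 passed in the first 2 of these fits, with a difference of 0.77 (adjusted p = 0.0455) and 0.75 (adjusted p = 0.0491). From GD45 to GD60, GFAP and AQP4 rose in both sexes (2 of 9 each). Of all genes, 7.22% were called and 4.34% rose in females, and 5.61% were called and 3.08% rose in males. The AQP4 call in males (adjusted p = 0.0273, edgeR) was lost with only these days in the fit (0.109). It was also lost in 3 of the 18 fits without 1 library. In females the AQP4 call (0.00828) was lost in 1 such fit, without replicate 18 (0.0523).

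Counts per exon gave the same direction along most gene models. From GD60 to GD90, 35 of the 41 exons tested of the members rose and none fell, where 6.48% of all exons rose and 6.08% fell (edgeR). All tested exons rose for GFAP (9), AQP4 (4), SLC1A2 (7), SPARCL1 (6) and ALDOC (1), and 8 of 11 for SLC1A3. These genes were already called higher from the same libraries. Their exons are therefore not independent of the gene results or of each other. The last SLC1A3 exon, at chr16:21964961-21968671, held 24361 of its 45645 exon counts and had a log2 fold change of 0.57 (SE 0.25) that was not called (adjusted p = 0.135). The 1 exon of GJA1 and the 2 of GJB6 that could be tested were not called. The exon table held 1.29% of the gene counts of GJA1, 11.3% of those of GFAP and 18.8% of those of SPARCL1, so the exon results of these genes rest on a small part of their reads. Against the rest of its gene, none of 39 exons changed (0.1% of all exons called, lowest adjusted p = 0.975), and 1 had an unadjusted p under 0.05. Most counts of AQP4 (94.3%) and SLC1A2 (86.7%) in the exon table fell on 1 exon each, at chr6:111409273-111412124 and chr2:25762395-25766656, so these tests say little about their other exons.

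Other astrocyte genes were read from 7 lists with 68 genes, of which 60 were tested. From GD45 to GD60, 22 rose and 4 fell (median log2 fold change 0.32, against −0.01 for all genes, of which 9.35% rose and 7.37% fell). From GD60 to GD90, 39 rose and 3 fell (median 0.86, against −0.01 for all genes, of which 21.4% rose and 20.9% fell). Of the endfoot genes 6 of 7 rose in the later period, among them the potassium channel KCNJ10 (log2 fold change 2.15, SE 0.11) and MLC1 (2.01, SE 0.15), which had also risen before by 0.78 and 1.02. Of 9 genes of transmitter uptake, 7 rose, led by the neurotensin receptor NTSR2 (2.26, SE 0.23) and the amino acid carrier SLC7A10 (1.96, SE 0.14).

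All 6 ion transport genes rose from GD60 to GD90, where 21.4% of all genes rose and 20.9% fell. The zinc carrier SLC39A12 (2.32, SE 0.18) and the sodium pump subunit ATP1B2 (1.48, SE 0.12) led. SLC39A12 had a value of 0.07 (SE 0.18) in the earlier period, while ATP1B2 had already risen by 0.74. Of 10 metabolic genes, 6 rose, with ETNPPL (2.64, SE 0.31) and DIO2, which activates thyroid hormone (1.84, SE 0.17), in front. DIO2 had risen nearly as much before, by 1.75 (SE 0.18).

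Of 13 secreted products, 6 rose and 2 fell from GD60 to GD90, where 21.4% of all genes rose and 20.9% fell. AGT, the precursor of angiotensin (1.92, SE 0.22), and the lipid carrier APOE (1.50, SE 0.19) rose, while the matrix protein THBS1 (−1.02, SE 0.16) and the proteoglycan GPC4 (−0.49, SE 0.09) fell. Of 10 receptors, 6 rose, with GPR37L1 (2.13, SE 0.23) and NTRK2 (1.34, SE 0.45) the largest. Among other connexin genes, GJD2 (1.46, SE 0.14), a connexin of neurons, rose and GJC1 (−1.33, SE 0.11) fell. 

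**Figure D4:**
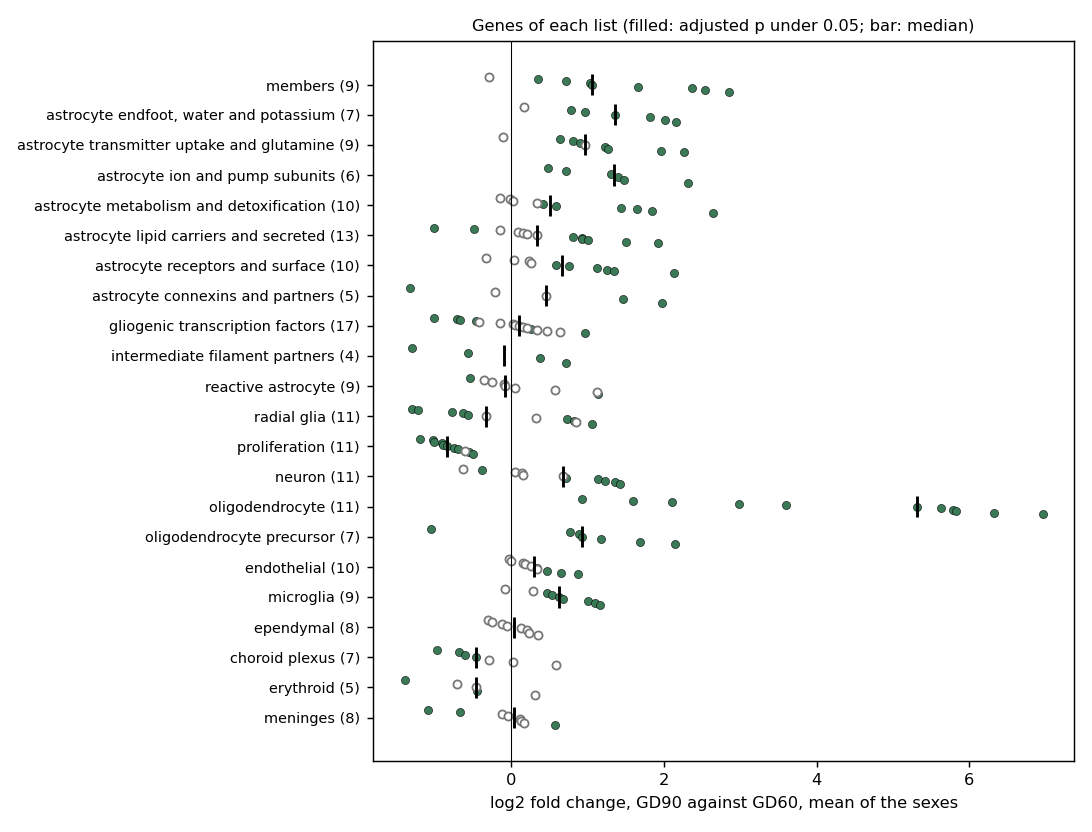
Log2 fold change from GD60 to GD90 (mean of the sexes) of every tested gene of each list, with the number of genes in brackets, filled where the adjusted p was under 0.05, and the list median as a bar. Most astrocyte lists lie to the right of 0, proliferation genes to the left, and the oligodendrocyte list reaches a median of 5.32.

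Of 17 transcription factors listed for gliogenesis, 3 rose and 4 fell from GD60 to GD90, shares near those of all genes (21.4% higher and 20.9% lower). SOX8 (0.97, SE 0.14) and SOX9 (0.33, SE 0.12) rose, SOX9 after a fall of 0.72 in the earlier period, and NFIB (−1.02, SE 0.40) and HES5 (−0.72, SE 0.26) fell. Of 4 partners of GFAP in the filament network, the radial glia proteins NES (−1.31, SE 0.16) and VIM (−0.57, SE 0.11) fell, and the muscle filament gene DES (0.71, SE 0.23) and the linker PLEC (0.37, SE 0.14) rose. Of 9 genes listed for reactive astrocytes, SPHK1 (1.13, SE 0.23) rose and SERPING1 (−0.54, SE 0.12) fell.

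Markers of other cells were read over the same days, beside shares of all genes from GD60 to GD90 of 21.4% higher and 20.9% lower. The summed level of the 11 radial glia genes was between 2538 and 3744 CPM at GD45, 2158 and 2456 at GD60 and 2073 and 2366 at GD90, and 3 of them rose and 5 fell from GD60 to GD90. All 11 proliferation genes fell in the earlier period, where 7.37% of all genes fell, and 10 in the later one. Their sums were 656 to 825, 285 to 367 and 164 to 214 CPM. All 11 oligodendrocyte genes rose at GD90, where their sum was 2064 to 3516 CPM after 122 to 159 and 140 to 167 CPM, led by ERMN (6.96, SE 0.42) and MAG (6.32, SE 0.26). Of the 9 microglia genes 7 rose (sums of 101 to 163, 120 to 172 and 184 to 299 CPM), of 11 neuron genes 5 rose and 1 fell, and of 10 endothelial genes 4 rose. Of the 8 ependymal genes tested none was called, with sums over 9 genes of 36.3 to 65.9, 37.1 to 51.3 and 37 to 47.8 CPM, and of 7 choroid plexus genes 4 fell. Of 7 genes of oligodendrocyte precursors 6 rose and 1 fell, of 5 erythroid genes 2 fell, and of 8 meningeal genes 1 rose and 2 fell. The summed level of the 9 astrocyte genes was 499 to 990, 925 to 1214 and 2746 to 3235 CPM. The part of these other cells in the change of the astrocyte genes was not tested.

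Among the genes whose pattern over the 18 libraries was most like the mean standardised log2 CPM of the 9 were HLF, TRIM9, CADPS2, RNF6, MLC1, PDGFRA and ZCCHC24, with a Pearson r between 0.975 and 0.981. These libraries share their gestation days, so any gene that rose at both days ranks high, and the r are a description. These 7 genes rose in both periods, by a log2 fold change between 0.27 and 1.02 from GD45 to GD60 and between 0.50 and 2.01 from GD60 to GD90. MLC1 is itself in the astrocyte lists, and PDGFRA is a marker of oligodendrocyte precursors.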

How the data were processed

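RNA of whole fetal brains, selected with oligo(dT), was sequenced as paired-end reads. According to the submitters' processing notes, the authors used FastQC, Trimmomatic, HISAT2, featureCounts and the genome build Sscrofa11.1, and the features carry Ensembl identifiers. They deposited raw read counts per gene and per exon, without normalization. Options for strand and for overlapping features are not given in the sources used here. Of the 18 libraries, 4 were given as 2 runs each (22 columns of counts), and these runs were summed. The chi-square per degree of freedom between runs was 1.61 to 1.67, against 6.71 or more between the closest libraries of a group. A table of transcript counts was not used.

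Genes were filtered with filterByExpr, scaled by TMM and tested with edgeR 4.0.16 (quasi-likelihood, R 4.3.3) in 1 model of 6 groups, with Benjamini-Hochberg adjustment over all genes. The SE is the log2 fold change divided by the square root of F. Exons were fitted likewise, and usage was tested with diffSpliceDGE. The scripts were tested on simulated data. Log2 CPM used a prior count of 2. Fetuses are separate animals, but littermates share a dam, and p-values measure only the spread between these samples. The labels tie littermates by litter size, and the consensus correlation within litters was 0.104.

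The 10 genes and all lists were chosen with earlier results of these data known. Of each other list, the genes named are up to 2 with the largest rise and 2 with the largest fall from GD60 to GD90 among those called with a mean of at least 1 CPM, and also the 8 genes most correlated with the mean of the members. Some of the genes this rule gives are not reported here. Sequences and RefSeq positions came from the RefSeq genome of Sscrofa11.1. The alternatives were DESeq2 1.42.0, no TMM, other filters, only the days compared, littermates summed, the litter as a block (limma 3.58.1), the lightest litter left out, each library left out and, added after seeing the data, the trend on gene length removed.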

Additional observations from a re-analysis of the deposited data

Results flagged for a closer look

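One of the 27 sets of 6 libraries (9 genes at 3 days) held a library far from the others by Dixon's test at the 95% level, which flags about 1 set in 20 by chance. SLC1A3 at GD90 was at 354 CPM in male replicate 1, where the other 5 libraries lay between 275 and 292 CPM. Without this library the log2 fold change of SLC1A3 from GD60 to GD90 was 1.00 (adjusted p = 4.65e-07, edgeR).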

How the results depend on the processing

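The counts of called genes among the 9 kept within 1.5 times the reported ones for GD60 against GD45 (2 in all fits), GD90 against GD60 and GD90 against GD45 with the sexes averaged, for the comparisons of the sexes at each day (0) and for exon usage (0). For the later minus the earlier period (3 called), 1 was called without TMM factors, with littermates summed and with the litter as a block. The ALDOC call for GD90 against GD60 was lost with that block (adjusted p = 0.0556, limma). In edgeR fits it was also lost without TMM (0.0744), with no filter (0.0966), with littermates summed (0.0701) and with the length trend removed (0.0522). In males, GD60 against GD45 gave 1 called gene with only these days in the fit, and the sex difference from GD60 to GD90 gave 2 called with only these days and 2 without the lightest litter, in place of 0. GJA1 was lost for GD90 against GD60 with littermates summed (adjusted p = 0.0562, edgeR). Leaving out each library gave 7 to 8 called for GD90 against GD60, 7 to 8 for GD90 against GD45, 1 to 5 for the difference of the periods (5 without male GD45 replicate 17), 1 to 2 and 4 to 5 in females, 1 to 2 and 6 to 8 in males, and 0 to 1 for the sex difference from GD60 to GD90. Values that changed sign were not called. For GJB6 from GD45 to GD90 (0.01) they were −0.03 without TMM, 0 with no filter, −0.02 with littermates summed and −0.28 without the lightest litter. Without that litter, GD60 against GD45 gave 0 for ALDOC, −0.01 for SPARCL1 (−0.01 in females, −0.02 in males) and −0.29 for GJB6 in females. SLC1A2 in males was 0.27 with the block and ALDOC in females −0.01 with the length trend removed. In fits without 1 library, the GD45 to GD60 values, sexes averaged, were −0.03 to 0.19 (ALDH1L1) and −0.48 to 0.02 (ALDOC). In females they were −0.21 to 0.79 for ALDOC, 0 to 0.20 for SPARCL1 and −0.29 to 0.42 for GJB6. In males they were −0.94 to 0.33 for SLC1A2, 0 to 0.23 for SLC1A3 and −0.04 to 0.38 for SPARCL1. From GD45 to GD90, sexes averaged, GJB6 was −0.17 to 0.30. The cause was not tested. Counts of ALDH1L1 and ALDOC, at most 35 per library, limit their precision.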
